A study of Homo sapiens with 3 samples.

Results

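The 10 genes described here encode chemokines that epithelial cells secrete, namely CXCL1, CXCL2, CXCL3, CXCL5, CXCL6, IL8 (now CXCL8), CCL20, CCL28, CX3CL1 and CXCL16. They were chosen by name among the 29689 genes of the deposited expression table, and all 10 were found in it, the gene for interleukin-8 under IL8. The data come from 3 xenograft tumors of SUM-149, a triple-negative breast cancer (TNBC) cell line that was implanted with Matrigel in the mammary fat pad of female Nu/Nu mice. The treatments were vehicle, the CDK2 inhibitor dinaciclib (CDK2i) for 10 days, and the EZH2 inhibitor EPZ6438 (EZH2i) for 10 days. RNAseq was performed on 1 library for each group, so no difference below has a replicate check and p-values are not given. EPZ6438 is the inhibitor of the sample label, whereas the study's account of SUM-149 tumor growth speaks of GSK343, so the identity of the EZH2 inhibitor rests on the label. Nu/Nu mice lack T cells but keep neutrophils and macrophages, and mouse stroma can be part of a tumor sample.

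CXCL1, CXCL2, CXCL3, CXCL5, CXCL6 and IL8 belong to the ELR-positive CXC chemokines, which attract neutrophils through the receptor CXCR2, and in the case of CXCL6 and IL8 also through CXCR1. In epithelial cells their transcription is induced by IL-1, TNF and related cytokines through NF-kappaB. CCL20 attracts CCR6-positive lymphocytes and dendritic cells and responds to the same cytokines. CCL28 is a mucosal chemokine of the mammary gland and gut that binds CCR10 and CCR3. CX3CL1 (fractalkine) and CXCL16 are made as membrane-bound proteins, bind CX3CR1 and CXCR6, and are released by the proteases ADAM10 and ADAM17.

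The 6 neutrophil-attracting genes lie together on chromosome 4 between 74606236 and 74964913 of GRCh37, a span of 359 kb. The sequence just before their transcription starts is shown because a motif in it was found in all 6 of them and in none of the other members. The 9 bases GGAATTTCC, a form of the NF-kappaB binding sequence, were searched on both strands in the 250 bases before the start of 16961 protein-coding genes. They were found in 64 of these windows, which is 0.377%. All 6 neutrophil-attracting genes were among them, and none of CCL20, CCL28, CX3CL1 and CXCL16 was. The match lay 78 to 70 bases before the start in CXCL1 and CXCL3, 77 to 69 in CXCL2, 90 to 82 in CXCL5, 89 to 81 in CXCL6 and 91 to 83 in IL8. An NF-kappaB consensus of 10 bases overlapped that match in CXCL1, CXCL2, CXCL3, CXCL5 and CXCL6 but was not found in IL8. It was found in 12.0% of all windows and in 8 members, CCL20, CX3CL1 and CXCL16 included. The split of all 6 genes against none of the others thus holds for the 9 bases and not for the consensus. IL8 also held an AP-1 sequence (TGANTCA, found in 4.34% of all windows), and IL8, CCL20 and CX3CL1 held TATAAA (7.60%). The start is that of the main annotated transcript, which for CXCL2, CXCL3, IL8 and CCL20 among the genes shown lies inside the span of the gene. The 150 bases before the start of the 5 genes that the results turn on are given 5′ to 3′ on the strand of the gene, with matches to GGAATTTCC or to the NF-kappaB consensus in capitals. They were read from GRCh37 at chr4:74734960-74735109 (plus strand), chr4:74964913-74965062 (minus), chr4:74904407-74904556 (minus), chr4:74606136-74606285 (plus) and chr2:228678408-228678557 (plus).
CXCL1: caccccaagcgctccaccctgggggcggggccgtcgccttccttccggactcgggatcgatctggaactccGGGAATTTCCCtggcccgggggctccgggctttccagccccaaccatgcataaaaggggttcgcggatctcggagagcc
CXCL2: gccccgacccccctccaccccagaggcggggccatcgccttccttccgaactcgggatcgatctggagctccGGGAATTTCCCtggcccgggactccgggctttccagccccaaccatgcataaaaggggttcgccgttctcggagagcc
CXCL3: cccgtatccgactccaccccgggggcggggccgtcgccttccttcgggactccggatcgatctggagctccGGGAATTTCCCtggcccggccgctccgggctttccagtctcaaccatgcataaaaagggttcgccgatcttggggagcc
IL8: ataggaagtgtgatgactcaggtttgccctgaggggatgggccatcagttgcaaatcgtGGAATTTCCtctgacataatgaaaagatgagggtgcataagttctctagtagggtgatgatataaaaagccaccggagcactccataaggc
CCL20: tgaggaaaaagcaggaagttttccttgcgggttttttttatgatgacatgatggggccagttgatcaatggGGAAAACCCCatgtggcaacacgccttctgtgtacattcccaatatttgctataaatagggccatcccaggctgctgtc
CXCL1, CXCL2 and CXCL3 are recent copies of one another, and their windows were identical at 86.0% to 89.9% of aligned bases. CXCL5 and CXCL6 formed a second pair with 90.6% identity. IL8 shared 47.6% to 56.8% with the other 5 windows. Motif matches within these near copies are not independent of one another. All are matches of letters only, and binding was not measured.

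Depth was close between the libraries. In each library, 41.6% to 42.6% of low FPKM values (fragments per kilobase of transcript and per M fragments) fell within 0.5% of a whole number of fragments at the best depth, which was 16.8, 19.1 and 17.6 M fragments for the vehicle, CDK2i and EZH2i libraries. Fragment numbers below use these depths and the length of the main transcript, and are approximate. The 95% intervals given beside a change cover the counting of fragments only, not the difference between tumors of one group. A gene was called changed when its fold was above 2 and its higher value above log2 FPKM 3, which is 8 FPKM. Expressed genes are the 11109 that averaged over log2 FPKM 1 and were listed above 0 in every tumor, and 6 members (CXCL1, CXCL2, CXCL3, IL8, CCL20 and CXCL16) are among them. The median change of all expressed genes in log2 FPKM was −0.11 with CDK2i and 0.19 with EZH2i relative to vehicle, and 0.35 with EZH2i relative to CDK2i. The tumors carried the keratins of SUM-149, and all 8 epithelial and basal markers were detected in each, with summed levels between 6212 and 15440 FPKM. KRT5, KRT6A, KRT14 and KRT17 were called higher with CDK2i. All values come from bulk tumor RNA, in which fewer cells of a type and less RNA per cell cannot be told apart.

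The neutrophil-attracting chemokine genes stood higher under EZH2i than under vehicle. Of the 6 genes, 4 reached the expression minimum, and all 4 of them (CXCL1, CXCL2, CXCL3 and IL8) were called higher, where 8.93% of the 7414 genes that could have passed were called higher and 4.42% lower. Their median change was 2.30, with a range from 1.73 to 3.94 log2 units. In the CDK2i tumor CXCL2 and CXCL3 were called higher, where 3.27% of 6632 genes were and 8.07% were called lower, and the median change of the 4 genes was 0.86. CXCL2 was below the minimum with vehicle, at log2 FPKM 2.635. It could pass only through a treated tumor and could not have been called lower than vehicle.

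IL8, a strong attractant and activator of human neutrophils and a gene that mice lack, was at 14.2 FPKM under vehicle, 23.3 under CDK2i and 219 under EZH2i. The EZH2i level stood apart from both others. It was 15.4-fold above vehicle, a log2 change of 3.94 (95% counting interval 3.79 to 4.09), and this was the rank 3 increase among the 11109 expressed genes. With CDK2i the log2 change of 0.71 (0.53 to 0.89) stayed below the fold threshold.

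CXCL1, first known as a melanoma growth factor, was at 152 FPKM under vehicle, 123 under CDK2i and 503 under EZH2i. It was the most abundant member per length in every tumor. Its level was 3.31-fold higher with EZH2i than with vehicle (log2 change 1.73, 1.67 to 1.79). With CDK2i it was the only member with a negative change, −0.31 (−0.38 to −0.23), which did not pass the fold threshold.

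CXCL3 was at 11.3 FPKM under vehicle, 22.9 under CDK2i and 73.0 under EZH2i, so each treated tumor exceeded vehicle and EZH2i exceeded CDK2i. The log2 change was 2.69 (2.48 to 2.91) with EZH2i. With CDK2i it was 1.02 (0.78 to 1.26), at the edge of the fold threshold, and the call was lost, at 0.87, when libraries were scaled to the same summed FPKM with ribosomal protein and mitochondrially encoded genes set aside. A pseudocount of 1 FPKM ended it too, leaving 2 called members.

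CXCL2 was at 6.21 FPKM under vehicle, 24.6 under CDK2i and 23.4 under EZH2i. Both treated tumors stood well above vehicle and close to each other. Their difference, EZH2i minus CDK2i, was −0.07 log2 units with a counting interval of −0.26 to 0.11, and it turned to 0.02 with equal summed FPKM and to 0.11 when ribosomal protein and mitochondrially encoded genes were left out of the sums. CXCL2 thus followed another pattern over the 3 tumors than its neighbours CXCL1, CXCL3 and IL8, which were higher with EZH2i than with CDK2i by 2.04, 1.67 and 3.23 log2 units.

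CXCL5 and CXCL6, close copies in sequence, were near the limit of detection. CXCL5 was listed at 0 with vehicle, at 0.0618 FPKM with CDK2i and at 0.135 with EZH2i, which stands for about 2.88 and 5.77 fragments. CXCL6 was listed at 0 with vehicle, at 0.183 FPKM with CDK2i and at 0.166 with EZH2i, about 5.36 and 4.48 fragments. By the one-sided 95% limit, a count of 0 with vehicle allows up to 3 fragments, or 0.0734 FPKM for CXCL5 and 0.116 for CXCL6, so no fold is given. Both genes stayed below the expression minimum and were not called.

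**Figure D1:**
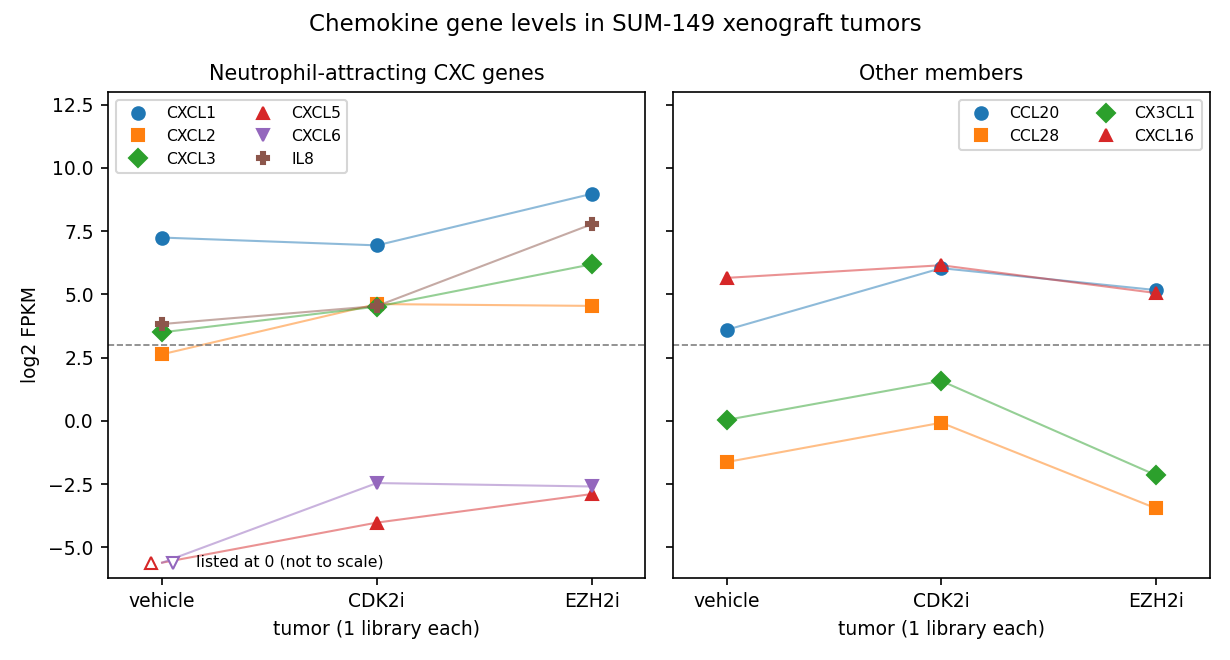
Level of each chemokine gene in log2 FPKM (y axis) in the vehicle, CDK2i and EZH2i tumors (x axis, 1 library each), with the neutrophil-attracting genes on the left and the other members on the right; open symbols mark a value listed at 0, drawn below the scale, and the dashed line is the expression minimum of log2 FPKM 3. CXCL1, CXCL3 and IL8 are highest with EZH2i, whereas CCL20, CCL28, CX3CL1 and CXCL16 are highest with CDK2i.

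Added together, the 6 genes were at 184 FPKM under vehicle, 194 under CDK2i and 818 under EZH2i. The sum was thus 1.06-fold the vehicle level with CDK2i and 4.45-fold with EZH2i. The sum with CDK2i hid a shift within the group. CXCL1 made up 82.7% of it with vehicle, 63.3% with CDK2i and 61.5% with EZH2i, and without CXCL1 the other 5 genes summed to 31.8, 71.0 and 315 FPKM. CXCL1, CXCL2 and CXCL3 are close copies, and reads could have been divided between them by the counting. Of all 50-base stretches in the CXCL1 transcript 5.33% occurred without mismatch in CXCL2 and 0.533% in CXCL3, and of those of CXCL2 5.07% occurred in CXCL3. No stretch of 100 bases was shared. Over aligned bases, transcript identity was 90.7% between CXCL1 and CXCL2, 80.3% between CXCL1 and CXCL3, and 82.5% between CXCL2 and CXCL3. Sharing of reads with mismatches allowed was not tested. The 3 genes counted as 1 were at 169 FPKM under vehicle, 170 under CDK2i and 599 under EZH2i.

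The other members followed another order, with the highest level with CDK2i for each of the 4 genes. Of these, CCL20 and CXCL16 reached the expression minimum. CCL20 was called higher in both treated tumors, and CXCL16 in neither. The median change of the 4 genes was 1.55 with CDK2i and −1.21 with EZH2i.

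CCL20 was at 12.1 FPKM under vehicle, 65.7 under CDK2i and 36.1 under EZH2i. Both treated tumors lay above vehicle, by 5.42-fold (log2 change 2.44, 2.20 to 2.68) and 2.98-fold (1.57, 1.32 to 1.83). The EZH2i level was 0.87 log2 units below that of CDK2i (counting interval of the difference −1.02 to −0.71), short of the fold threshold. With libraries centred on the median expressed gene it was −1.30, past the threshold.

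CX3CL1 (chr16:57406389-57418956) was at 1.03 FPKM under vehicle, 2.99 under CDK2i and 0.226 under EZH2i, about 56.6, 188 and 13.1 fragments. The treated tumors lay on opposite sides of vehicle, with log2 changes of 1.54 (1.10 to 1.99) with CDK2i and −2.18 (−3.19 to −1.31) with EZH2i. They differed by 13.2-fold from each other. CX3CL1 never reached the expression minimum and was not called.

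CCL28 (chr5:43376747-43412493) showed the same order at a lower level, with 0.324 FPKM under vehicle, 0.953 under CDK2i and 0.0913 under EZH2i. These values stand for about 17.0, 56.9 and 5.01 fragments. The log2 changes were 1.56 (0.75 to 2.43) and −1.83 (−3.63 to −0.33), and the wide intervals reflect the few fragments with vehicle and EZH2i. A pseudocount of 1 FPKM shrank them to 0.56 and −0.28, and those of CX3CL1 to 0.98 and −0.73.

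CXCL16 (chr17:4636828-4643223) varied least among the members with a value in every tumor, counted as the distance between its highest and lowest level. It was at 50.4 FPKM under vehicle, 71.2 under CDK2i and 33.2 under EZH2i, log2 changes of 0.50 (0.42 to 0.58) and −0.60 (−0.70 to −0.50). Between the treated tumors it was called, at 2.14-fold lower with EZH2i than with CDK2i. This call was lost with the trend over GC content and length removed (−0.78) and with sums made equal without ribosomal protein and mitochondrial genes (−0.91).

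**Figure D2:**
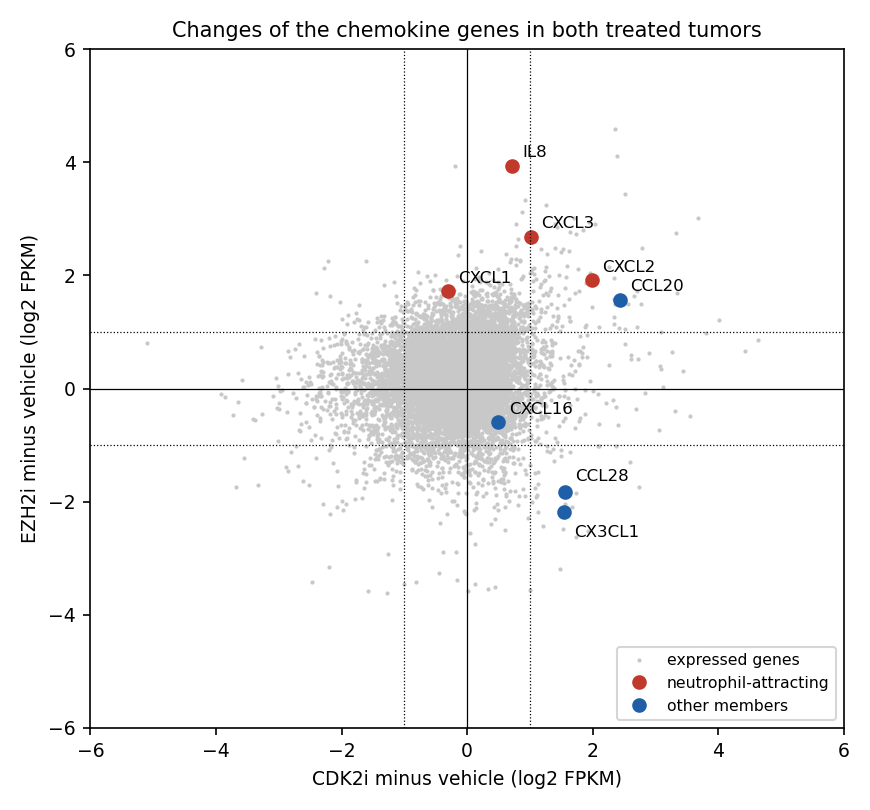
Change in log2 FPKM from vehicle in the CDK2i tumor (x axis) and in the EZH2i tumor (y axis) for the 8 members listed above 0 in every tumor, in red for neutrophil-attracting genes and blue for the others, over the expressed genes in grey; dotted lines mark a fold of 2. Both axes share the vehicle library. CXCL2, CXCL3 and CCL20 lie beyond the fold of 2 on both axes, IL8 and CXCL1 on the EZH2i axis alone, and CX3CL1 and CCL28 lie to the right and below.

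Over all 10 members, 6 reached the expression minimum. Of these, 3 were called higher with CDK2i, where 11.3% of genes were called in either direction, and 5 with EZH2i, where 13.4% were. None was called lower, which was not possible for CXCL2, below the minimum with vehicle. Both comparisons use the same vehicle tumor. Between the treated tumors, CXCL1, CXCL3 and IL8 were called higher and CXCL16 lower with EZH2i than with CDK2i. In that comparison 17.5% of the 7394 genes that could have passed were higher and 6.53% lower, 24.1% in all. Without the minimum, 7 members were called higher with CDK2i, where 18.0% of genes were higher and 25.6% lower (43.6% in all). With EZH2i 7 were then called higher and 2 lower, against 22.9% and 18.0% (40.9% in all). Both sets of 7 include CXCL5 and CXCL6, which are compared there with a vehicle value of 0 and have no fold. Between the treated tumors 4 were higher and 3 lower, against 33.5% and 19.2% (52.7% in all), and CXCL5 with its few fragments was among the 4.

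By direction alone, 7 of the 8 members listed above 0 in every tumor were above vehicle with CDK2i and 5 with EZH2i, where 41.9% and 61.5% of expressed genes were. Between the treated tumors 3 of the 8 were higher with EZH2i, against 66.9% of expressed genes. Their median was 1.28 with CDK2i and 1.65 with EZH2i. It was −0.47 between the treated tumors, where CXCL1, CXCL3 and IL8 lay above 0 and the other 5 below.

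The changes can be set beside the spread of genes of like level, taken as the SD of the EZH2i minus CDK2i differences of the 200 genes nearest in mean log2 FPKM. This spread contains drug effects and is no replicate error. It comes from the treated libraries alone, whereas the changes set beside it are from vehicle, so unlike differences are compared. The SD was 0.69 for CXCL1, 0.72 for CXCL2, 0.75 for CXCL3, 0.59 for IL8 and 0.73 for CCL20, less than the EZH2i change of each of these genes. With CDK2i the changes of CXCL1 and CXCL16 were smaller than their spreads of 0.69 and 0.66, and so was the CXCL16 change with EZH2i. The spread was wider for the weakly expressed genes, 1.33 for CX3CL1 and 1.62 for CCL28, and the CCL28 change with CDK2i lay within it.

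Per length, the order of the members was CXCL1, CXCL16, IL8, CCL20, CXCL3, CXCL2, CX3CL1 and CCL28 with vehicle. IL8, CCL20 and CXCL3 were neighbours in this order, and IL8 and CCL20, and CCL20 and CXCL3, had overlapping counting intervals. With CDK2i, CCL20 stood next to CXCL16 with overlapping intervals, and CXCL2, IL8 and CXCL3 lay within 22.9 to 24.6 FPKM and did not differ beyond counting error. With EZH2i, IL8 came directly after CXCL1 and was followed by CXCL3, and CCL20 and CXCL16 overlapped.

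The EZH2i library differed from vehicle along the base composition of transcripts, and this touches the members. Across 10163 expressed genes without ribosomal protein genes, the change with EZH2i had a Spearman correlation of −0.58 with GC content and 0.49 with transcript length, against 0.03 and 0.09 for CDK2i. These are correlations across genes of the same libraries, which are not independent replicates. The IL8 transcript has a GC content of 32.9%, lower than that of all but 0.138% of expressed genes, and CCL20 one of 35.6%. CX3CL1 and CXCL16 stand at 59.9% and 57.4%. The 200 expressed genes nearest to IL8 in GC content had a median EZH2i change of 0.76, and those nearest to CX3CL1 one of −0.21. With the trend over GC content and length removed, the EZH2i change was 3.73 for IL8, 2.85 for CXCL3, 2.06 for CXCL2, 1.89 for CXCL1 and 1.59 for CCL20. It was −1.88 for CX3CL1, −2.17 for CCL28 and −0.25 for CXCL16. The number of called members with EZH2i stayed at 5 after this removal.

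**Figure D3:**
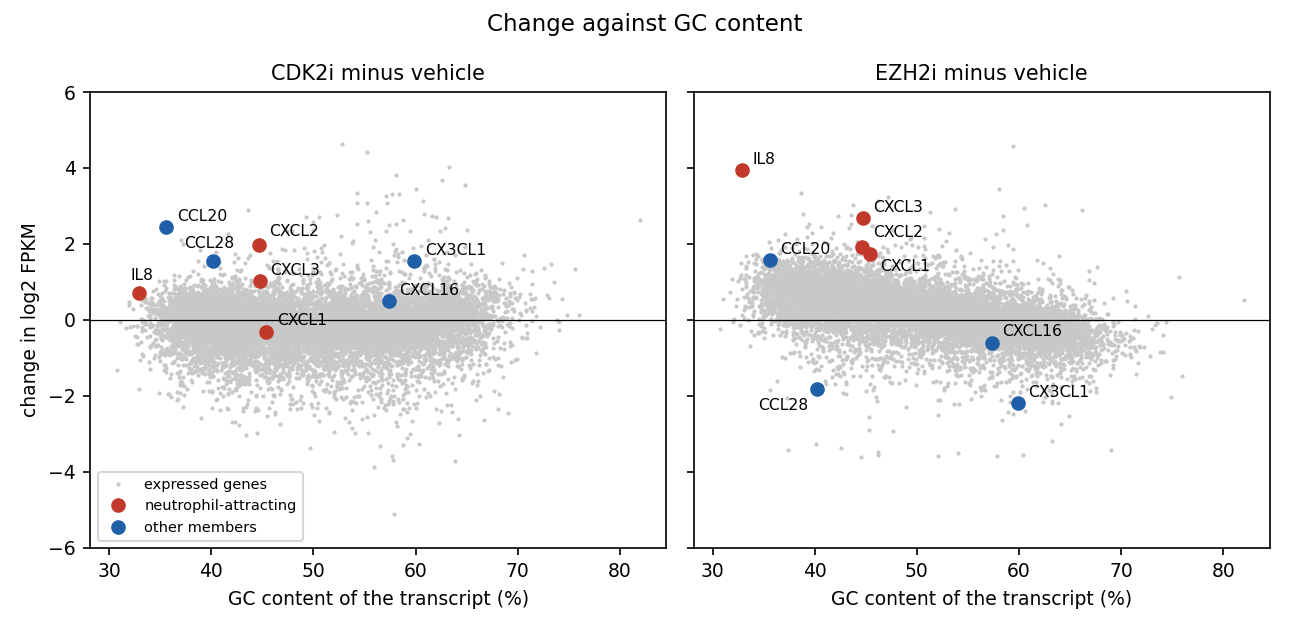
Change in log2 FPKM from vehicle (y axis) against the GC content of the transcript in percent (x axis), for CDK2i on the left and EZH2i on the right, with the members in color over the expressed genes in grey. The grey cloud slopes downward with EZH2i, where IL8 at 32.9% GC lies at 3.94 and CCL28 at 40.2% GC lies at −1.83.

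Around the chemokine cluster on chromosome 4, 9 other protein-coding genes of the table lie within 500 kb of either end. PF4 and PPBP, platelet chemokine genes located inside the cluster, were at 0.493 and 0.417 FPKM with vehicle, 0.865 and 0.658 with CDK2i, and 1.99 and 2.47 with EZH2i. Both thus had their highest value with EZH2i but stayed below the expression minimum. Beyond the cluster lie genes of EGFR ligands. EREG (epiregulin) was at 19.7 FPKM under vehicle, 27.7 under CDK2i and 60.7 under EZH2i, and it was called higher with EZH2i with a log2 change of 1.62. AREG (amphiregulin) was at 13.9, 16.4 and 17.9 FPKM and was not called. AREGB, a second amphiregulin entry outside these 9 genes, had log2 changes of 0.21 with CDK2i and 1.10 with EZH2i. MTHFD2L, a mitochondrial folate enzyme gene, was called higher with EZH2i with a log2 change of 1.26. EPGN, a gene of a further EGFR ligand, and RASSF6 were weakly expressed, and their EZH2i values differed from vehicle by 2.05 and 1.82 log2 units. ALB and AFP stayed below 0.08 FPKM in every tumor. With CDK2i only EREG and AREG reached the expression minimum, and neither was called, where 11.3% of genes were called in either direction. With EZH2i EREG, AREG and MTHFD2L reached it, MTHFD2L through the EZH2i tumor alone. In that comparison 8.93% of all genes that could have passed were called higher. The neighbours were chosen by position after the values of the members were known, and those called with EZH2i are poor in GC, at 36.1% for EREG and 36.9% for MTHFD2L. With the GC and length trend removed the change was 1.07 for EREG and 0.95 for MTHFD2L, the latter below the fold threshold.

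**Figure D4:**
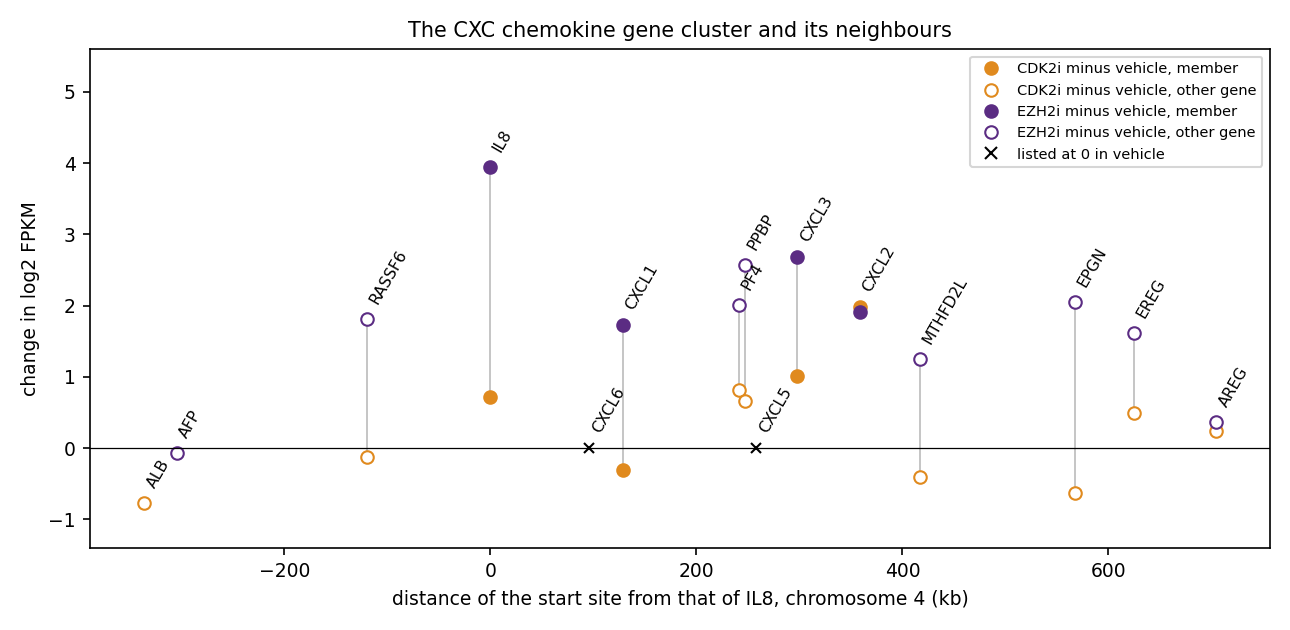
Change in log2 FPKM from vehicle (y axis) for the genes around the CXC chemokine cluster, by the distance of the start site from that of IL8 in kb (x axis), in orange for CDK2i and purple for EZH2i, with members filled and other genes open; crosses mark genes listed at 0 with vehicle. EZH2i values exceed CDK2i values at each gene with both values except CXCL2.

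Of the other chemokine genes, 19 of a list of 34 were in the table, and CXCL14 alone reached the expression minimum. CXCL14, an epithelial chemokine for monocytes and dendritic cells, was called higher in both tumors, at 12.2 FPKM under vehicle, 79.5 under CDK2i and 25.9 under EZH2i. The 11 of these genes listed above 0 in both tumors compared, CXCL14 included, had a median of 0.66 for CDK2i against vehicle, and the 11 for EZH2i against vehicle one of −0.62. The receptors of the members, which are mostly genes of leukocytes, were near 0. CXCR1, CXCR2, CCR6, CX3CR1 and DARC (ACKR1, a scavenging receptor) were between 0 and 0.0726 FPKM in each tumor. CCR3 was at 0.149 to 0.392, CCR10 at 0.215 to 0.382 and CXCR6 at 0.0425 to 0.448 FPKM. Of the proteases that release CX3CL1 and CXCL16, ADAM17 was called higher with EZH2i, at 10.4 FPKM under vehicle, 16.1 under CDK2i and 23.5 under EZH2i, and ADAM10 was not called. With the GC and length trend removed the ADAM17 change fell from 1.18 to 0.76, below the fold threshold.

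Genes of cytokines that induce these chemokines were called higher in both treated tumors. Of 7 listed genes in the table, 4 could have passed with CDK2i and 3 with EZH2i. Called higher were 3 with CDK2i (TNF, IL36G and IL17C) and 3 with EZH2i (IL1A, IL1B and IL36G). Over all genes that could have passed, 3.27% and 8.93% were called higher. The cytokine genes named here were below the expression minimum with vehicle, so each could pass only through a treated tumor. None of them could have been called lower, and the counts are not comparable with those shares. IL1B was at 5.48 FPKM under vehicle, 10.1 under CDK2i and 47.8 under EZH2i, and IL1A at 2.24, 4.23 and 22.8 FPKM. Both had their highest level with EZH2i, and so had IL36G, at 7.23, 23.6 and 58.6 FPKM. IL17C, an epithelial cytokine, was at 0.685, 11.1 and 1.59 FPKM, highest with CDK2i. TNF followed the IL17C order, at 1.67, 17.0 and 5.38 FPKM. Whether these cytokines acted on the chemokine genes in the tumors was not tested. Of the receptors of these cytokines, TNFRSF1A was called lower with CDK2i (81.6 to 32.6 FPKM) and IL1RAP, a shared subunit of the IL-1 and IL-36 receptors, higher with EZH2i (7.38 to 18.4 FPKM). The IL1RAP call was lost with the GC and length trend removed, at 0.79 instead of 1.32. Of 13 NF-kappaB genes and feedback regulators, TNFAIP3 was called higher in both tumors, at 4.61, 15.6 and 20.1 FPKM. It encodes a deubiquitinase that dampens NF-kappaB. TNFAIP3 and IL1RAP were below the expression minimum with vehicle, so neither could have been called lower than vehicle. NFKBIZ, a cofactor for IL-1 responses, was at 12.1 FPKM under vehicle, 23.7 under CDK2i and 34.3 under EZH2i. It was called higher with EZH2i. With CDK2i its log2 change of 0.97 fell just short of the fold threshold. The subunits NFKB1, NFKB2, RELA, RELB and REL were not called. REL stayed below the expression minimum in every tumor and could not have been called. Its log2 change with EZH2i was 1.09, and 0.39 with the GC and length trend removed. ZFP36, which promotes decay of cytokine mRNAs, was called higher with CDK2i (3.09), and NFKBIE, an NF-kappaB inhibitor, lower (−1.47).

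CSF3, the granulocyte colony-stimulating factor gene, was at 0.605 FPKM under vehicle, 3.09 under CDK2i and 14.5 under EZH2i, and was called higher with EZH2i. LIF, a cytokine of the IL-6 family, was called higher with CDK2i with a log2 change of 3.26. CSF1, the macrophage growth factor gene, was called lower with CDK2i (−2.18). The epithelial alarmin genes S100A8 and S100A9, also abundant in neutrophils, moved the other way from IL8 and were called lower with EZH2i, with log2 changes of −1.66 and −1.32. With the GC and length trend removed these were −1.23 and −0.63, so the S100A9 call was lost. Over all lists, 64 genes of 81 were in the table. With CDK2i 7 of them were called higher and 3 lower, of 26 that could have passed, against 3.27% and 8.07% of all genes. With EZH2i 9 were called higher and 2 lower, of 27, against 8.93% and 4.42%. Those called higher include TNF, IL1A, IL1B, IL36G, IL17C, IL1RAP, TNFAIP3, LIF and CSF3, which were below the minimum with vehicle. They could pass only through a treated tumor and could not have been called lower than vehicle. The counts of genes called higher are thus not comparable with those shares. Removing the GC and length trend left 7 higher and 1 lower with EZH2i.

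**Figure D5:**
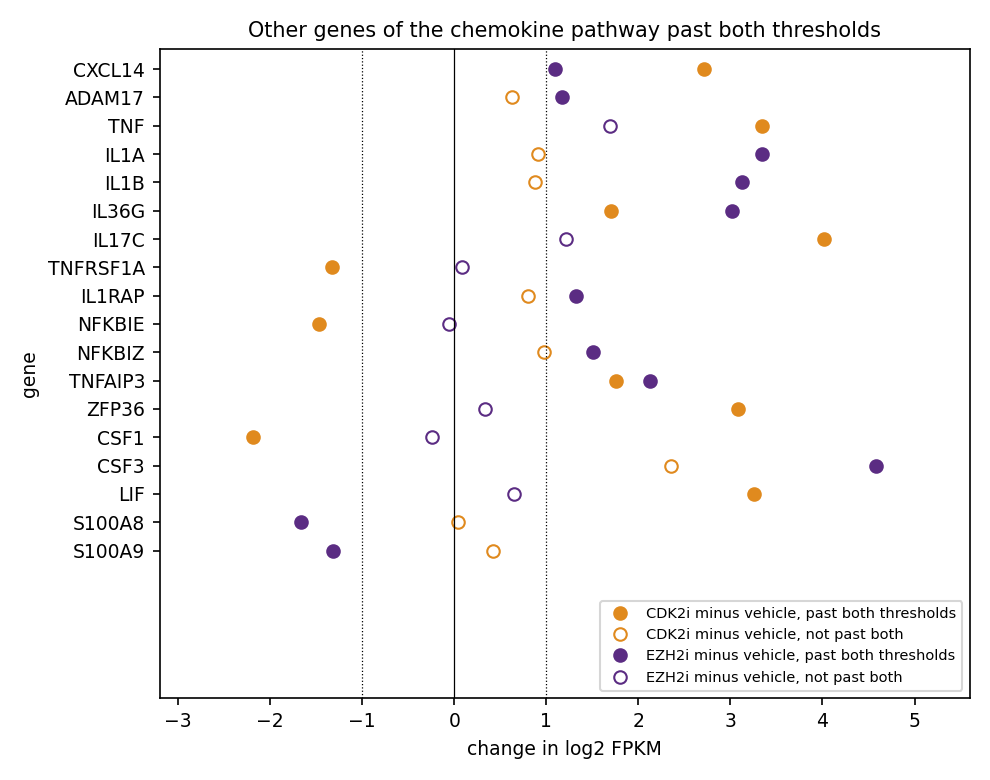
Change in log2 FPKM from vehicle (x axis) for the genes of the pathway lists called in at least 1 treated tumor (y axis), in orange for CDK2i and purple for EZH2i, filled where past both thresholds; dotted lines mark a fold of 2. IL1A, IL1B and CSF3 reach their highest values with EZH2i, and TNF, IL17C, ZFP36 and LIF with CDK2i.

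Markers of other cell types had summed levels far below those of the epithelial list. The 8 neutrophil markers summed to 3.15 FPKM under vehicle, 1.51 under CDK2i and 0.233 under EZH2i, mostly from FCGR3B with vehicle and CDK2i. CSF3R stayed below 0.5 FPKM, FPR1 and CEACAM8 were at 0 with vehicle and EZH2i, and ELANE was at 0 in both treated tumors. The neutrophil sum was thus lowest with EZH2i, where IL8 was highest. The 6 macrophage markers in the table summed to 11.4, 11.1 and 5.30 FPKM, mostly from CD14 and ITGAM, with CD68 at 0 in both treated tumors. The 6 lymphocyte markers summed to 2.08, 1.44 and 1.20 FPKM, the 4 endothelial markers to 0.833, 0.730 and 0.466, and the 7 fibroblast markers to 24.5, 38.4 and 28.9. These lists read human genes, and mouse transcripts count toward them only as far as their reads map to human sequence. The part of host cells in the chemokine levels was not tested.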

How the data were processed

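The authors sequenced 3 SUM-149 xenograft tumors and deposited log2 FPKM per gene symbol, with GRCh37/hg19 as reference. The submitters' processing notes list CASAVA and STAR among the tools. Versions, the counting tool, strand setting and any separation of mouse reads are not given in the sources used here. The value −9 appears to stand for an FPKM of 0 and was listed for 5624 to 5853 genes per library. FPKM is relative to gene length and library size, so a few abundant genes can shift all others.

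Changes are differences of the deposited log2 values, without pseudocount. The members, gene lists and thresholds were chosen with earlier results of these data known. The thresholds are the fold and expression limits of the study, whose limma p-value needs replicates and was not computed. Named beyond the members were the receptors and the listed genes past both thresholds against vehicle. Depth was the value at which the number of low FPKM values within 0.5% of a whole number of fragments was highest (1178 to 1322 of 2767 to 3129 values per library), with main transcript lengths from GENCODE 44 on GRCh37. Fragment numbers are approximate where the lengths of the authors differed. Counting intervals are exact (Poisson for levels, Clopper-Pearson for ratios). Of the 29689 symbols, 20204 matched the annotation, 1478 of them by a former name. To remove the GC and length trend, a polynomial of degree 3 in each property was fitted over expressed genes other than ribosomal protein genes. Steps were tested on simulated data. Python 3.11.15, numpy 2.4.6, pandas 2.3.3, scipy 1.17.1, biopython 1.88 and matplotlib 3.10.9 were used.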

Additional observations from a re-analysis of the deposited data

How the results depend on the processing

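No paired analysis was possible because each group has 1 library, and for the same reason no library could be left out. Of 144 changes of single members under the pseudocounts, scalings and the GC and length trend removal, 142 kept their direction. The exceptions were the 2 CXCL2 differences between the treated tumors given above, and no called member changed sign. The number of called members moved with the expression minimum. Without it 7 members were called in CDK2i, 9 in EZH2i and 7 between the treated tumors, the first 2 counts including CXCL5 and CXCL6 over a vehicle value of 0, and with a minimum of log2 FPKM 5 the number was 1 in CDK2i. Without the minimum, 43.6% of genes were called in CDK2i, 40.9% in EZH2i and 52.7% between the treated tumors. For the genes of the pathway lists the numbers without minimum were 32, 35 and 36, and with a minimum of 5 they were 4, 5 and 9. A fold threshold of 1.5 called 16 of these genes in CDK2i, and a fold threshold of 3 called 6 in EZH2i. No share over all genes was computed for the minimum of 5 or for these fold thresholds. The counts there, of members and of pathway genes, are therefore not set against a general rate. The median change of the members kept its sign throughout. With a pseudocount of 1 FPKM, over all 10 members, it was 0.62 in CDK2i, 0.86 in EZH2i and −0.045 between the treated tumors, and with 0.1 FPKM −0.079 between them. With libraries centred on the median expressed gene it was 1.40 in EZH2i and −0.90 between the treated tumors. It was 1.89 in EZH2i with equal summed FPKM, and −0.28 between the treated tumors when ribosomal protein and mitochondrially encoded genes were left out of the sums. Of the alternatives added after seeing the data, setting CXCL5 and CXCL6 in vehicle at 3 fragments gave 0.86, 1.23 and −0.10, and summing CXCL1, CXCL2 and CXCL3 to 1 gene gave 0.49 in EZH2i and −0.98 between the treated tumors. That last pair arises because 6 genes then remain, of which CCL28, CX3CL1 and CXCL16 are 3. Depth limits CXCL5, CXCL6 and, in EZH2i, CCL28.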

Other observations

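The genes whose pattern over the 3 tumors was most like the summed FPKM of the 6 neutrophil-attracting genes were found by the distance between their pairs of changes from vehicle, in log2 units, among expressed genes. KIF14, a mitotic kinesin gene, was nearest at a distance of 0.0683, at 2.15, 2.36 and 9.38 FPKM with vehicle, CDK2i and EZH2i. SRGAP2C (0.220), the clone gene RP3-339A18.6 (0.224), ZBED2 (0.255) and RAPH1 (0.278) followed. All 5 had vehicle levels between 1.27 and 4.74 FPKM, far below the 184 FPKM of the chemokine sum. The likeness rests on 3 libraries.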
